A study of Mus musculus with 11 samples.

Results

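The 8 genes described here, *2410006H16Rik*, *Gas5*, *Snhg1*, *Snhg3*, *Snhg5*, *Snhg6*, *Snhg8* and *Snhg12*, are noncoding genes whose introns carry small nucleolar RNAs (snoRNAs). They are 8 of the 54146 genes in the table of each embryo, and 8 of 64 annotated noncoding genes that hold a snoRNA gene. They were named as a list, and the list was chosen by values of the mutant against control contrast, in which *2410006H16Rik* (also named mouse *Snhg29*) was already known to be low. The difference between mutant and control embryos is therefore given below as a description, without a test, and tests are kept for comparisons that the choice did not use. The data were RNA-seq libraries of 11 single mouse embryos at the 8-cell stage, collected at embryonic day 2.5 from intercrosses of mice heterozygous for a *Prdm10* null allele. The 6 controls (WT/HET) were wild-type or heterozygous embryos, which were not told apart, and the 5 mutants (KO) were homozygous for the allele. The null allele lacks an exon of *Prdm10* in every cell, having been made by crossing a floxed allele to an ACTB-Cre line, and *Prdm10* encodes a zinc finger transcription factor. Batch 1 held 3 control and 2 mutant embryos amplified with 16 PCR cycles before library preparation, and batch 2 held 3 control and 3 mutant embryos amplified with 13 cycles.

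A snoRNA host gene is transcribed and spliced like a messenger RNA, and the snoRNA is then trimmed out of the discarded intron. Box C/D snoRNAs guide the methylation of ribosomal RNA and box H/ACA snoRNAs guide its pseudouridylation, so these genes sit upstream of ribosome assembly. The spliced exons of many noncoding hosts hold no long reading frame, are loaded onto ribosomes, and are removed by nonsense-mediated decay. Their promoters often resemble those of ribosomal protein genes, with transcription starting in a run of pyrimidines called a terminal oligopyrimidine tract. Libraries were primed with oligo-dT, so the values below are read as those of the polyadenylated host transcript and not of the snoRNA. Spliced and unspliced reads were not told apart. For *Snhg3*, how reads were divided between the host and a snoRNA was not tested.

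The hosts differed in how many annotated snoRNA genes they spanned. On GRCm38, *2410006H16Rik* (ENSMUSG00000086841.1) spans chromosome 11, 62602877 to 62604807 on the + strand, with a single annotated transcript, and holds *Snord49b*, *Snord49a* and *Snord65*. *Gas5* on chromosome 1 spans 10 annotated snoRNA genes, *Snhg1* on chromosome 19 spans 8, and *Snhg12* on chromosome 4 spans 5. These are entries of the annotation: the 10 of *Gas5* include *Mir5117* and a pair of overlapping *Snord80* entries, and the 5 of *Snhg12* include a pair of overlapping *Snora16a* entries. *Snhg3* on chromosome 4 and *Snhg5* on chromosome 9 hold 2 each, and *Snhg6* on chromosome 1 and *Snhg8* on chromosome 3 hold 1 each. The 3 snoRNAs of *2410006H16Rik* are shown because they are the products of the host with the largest difference in the mutants. They are written 5′ to 3′ as DNA on the + strand of GRCm38, with the C box (TGATGA) and the D box (CTGA), which mark the box C/D class, in capitals.
Snord49b, chr11:62603079-62603150: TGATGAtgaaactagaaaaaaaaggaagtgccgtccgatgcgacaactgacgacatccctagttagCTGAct
Snord49a, chr11:62603450-62603521: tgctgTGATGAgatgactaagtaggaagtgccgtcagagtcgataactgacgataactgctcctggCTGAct
Snord65, chr11:62604515-62604586: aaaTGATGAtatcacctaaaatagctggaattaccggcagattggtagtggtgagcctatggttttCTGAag
Each is 72 bases long. *Snord49b* and *Snord49a* share a run of 13 bases, aggaagtgccgtc, which starts at base 23 of both.

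Reads of the snoRNA genes themselves were almost absent. Of the 32 snoRNA genes inside the 8 members, 18 had a count above 0 in any library, and 14 were given an effective length of 0 by RSEM in every library. *Snord49b* had a summed expected count of 1 over the 11 libraries, and *Snord49a* and *Snord65* were listed at 0. The exception was *Snora73b*, inside *Snhg3*, with a summed expected count of 986 and reads in 11 of 11 libraries.

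The promoters were compared because genes of this class often start in a run of pyrimidines. RefSeq promoter windows (GRCm38.p6) were matched for 7 of the 8 members, with separate starts for *Gas5*. The 20 bases before and the 20 from each start are shown on the strand of the gene, with the longest run of C and T that touches the 10 bases either side of the start in capitals.
2410006H16Rik, chr11:62602857-62602896 (+): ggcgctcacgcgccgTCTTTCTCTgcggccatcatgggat
Gas5, chr1:161035146-161035185 (+): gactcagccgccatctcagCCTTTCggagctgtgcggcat
Gas5, chr1:161034581-161034620 (+): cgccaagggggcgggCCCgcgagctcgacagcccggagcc
Snhg1, chr19:8723467-8723506 (+): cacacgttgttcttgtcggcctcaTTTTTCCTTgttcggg
Snhg3, chr4:132353667-132353706 (-): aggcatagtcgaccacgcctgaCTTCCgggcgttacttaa
Snhg5, chr9:88522878-88522917 (-): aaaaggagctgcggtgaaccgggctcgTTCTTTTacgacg
Snhg8, chr3:123508317-123508356 (-): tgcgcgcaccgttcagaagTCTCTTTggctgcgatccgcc
Snhg12, chr4:132308658-132308697 (+): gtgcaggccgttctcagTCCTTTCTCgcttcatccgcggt
A run of 5 or more pyrimidines touched the 10 bases either side of a start in 7 of the 7 matched members, and was 9 letters long in *2410006H16Rik*, *Snhg1* and *Snhg12*. In *Snhg3*, *Snhg1* and *Snhg5* the run began 2, 4 and 7 bases after the annotated start. A run of 5 or more near the start was also found in 49.0% of the 27025 genes with a promoter window, so such a run is common and does not by itself mark these genes.

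The promoter of *2410006H16Rik* was examined further, because it is the only member on the list of genes associated with PRDM10 binding sites that accompanies the study, and the other 7 are not on it. Hosts outside the 8 members are also on that list, as given below. The gel-shift probe designed in the study for the PRDM10 motif is printed with the 8 bases that its altered version changed in capitals.
Probe: ctggcacagTGGTcgcGCCCggcccgcc
The altered bases spell TGGTNNNGCCC, which was found on either strand in the windows of 1.69% of 27025 genes and in none of the 7 matched members. A looser form, TGGTNNNNNCC, chosen after that search, was found in 15.6% of genes and in 3 of the members, *2410006H16Rik*, *Snhg5* and *Snhg12*. Every match to the first form is also a match to the looser form. The 300-base window of *2410006H16Rik*, chr11:62602627-62602926 on the + strand, is shown with the fixed letters of the looser form and the pyrimidine run at the start in capitals.
2410006H16Rik promoter: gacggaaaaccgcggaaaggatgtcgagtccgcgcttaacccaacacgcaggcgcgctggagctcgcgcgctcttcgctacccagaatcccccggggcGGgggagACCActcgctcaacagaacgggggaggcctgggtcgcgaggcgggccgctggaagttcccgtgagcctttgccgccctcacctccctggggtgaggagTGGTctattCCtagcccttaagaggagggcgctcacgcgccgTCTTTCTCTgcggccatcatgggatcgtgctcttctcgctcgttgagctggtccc
The match on the + strand, TGGTCTATTCC, begins 47 bases before the start, and the match on the - strand begins 152 bases before it. These are matches of letters, and binding at them was not measured here.

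The libraries were of similar depth in both groups. Expected counts summed to between 3534735 and 7195942 reads in the controls and between 5402858 and 8265840 in the mutants. *Prdm10* itself was at 11.1 to 24.8 TPM (transcript abundance corrected for length and scaled to one total per library) in the controls and at 4.88 to 8.16 TPM in the mutants, and its normalised counts, 124 to 381 in controls and 104 to 202 in mutants, overlapped. RSEM gave *Prdm10* an effective length of 2565 to 3357 bases in controls and 4348 to 5051 bases in mutants. All 6 markers fixed for the 8-cell embryo were above 1 TPM in 11 of 11 libraries. Of 6 markers of cumulus or granulosa cells, 3 were at 0 in every library, and their summed level was at most 0.81 TPM in controls and 5.03 TPM in mutants. Of 4 markers of oviduct epithelium, 2 passed 1 TPM in any library, and their summed level ranged from 0 to 24.3 TPM in controls and from 0 to 31.9 TPM in mutants, nearly all of it *Ovgp1*.

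*2410006H16Rik* was the member that set mutants and controls apart. In the controls of batch 2 its level was 181, 119 and 137 TPM, and in those of batch 1 it was 109, 121 and 112 TPM. In the mutants of batch 2 it was 12.6, 24.9 and 22.6 TPM, and in those of batch 1 it was 30.0 and 10.4 TPM. The highest mutant lay below the lowest control in both batches. The mean was 130 ± 26.7 TPM (SD, n = 6) in controls and 20.1 ± 8.32 TPM (SD, n = 5) in mutants, a ratio of 0.155. In whole embryos, fewer cells that express a gene and less RNA per cell cannot be told apart.

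On normalised counts the log2 fold change of *2410006H16Rik*, mutant minus control with batch in the model, was -2.71 ± 0.29 (SE). It was -2.85 ± 0.41 in batch 2 alone and -2.52 ± 0.47 in batch 1 alone. The expected counts behind these values were 129 to 421 reads in controls and 17 to 66 in mutants. RSEM, which divides reads shared between genes, gave a posterior SD of 0 to each of these counts, so the gene shared no reads with another. Its effective length was 388 bases in every library, so level and count moved together.

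**Figure D1:**
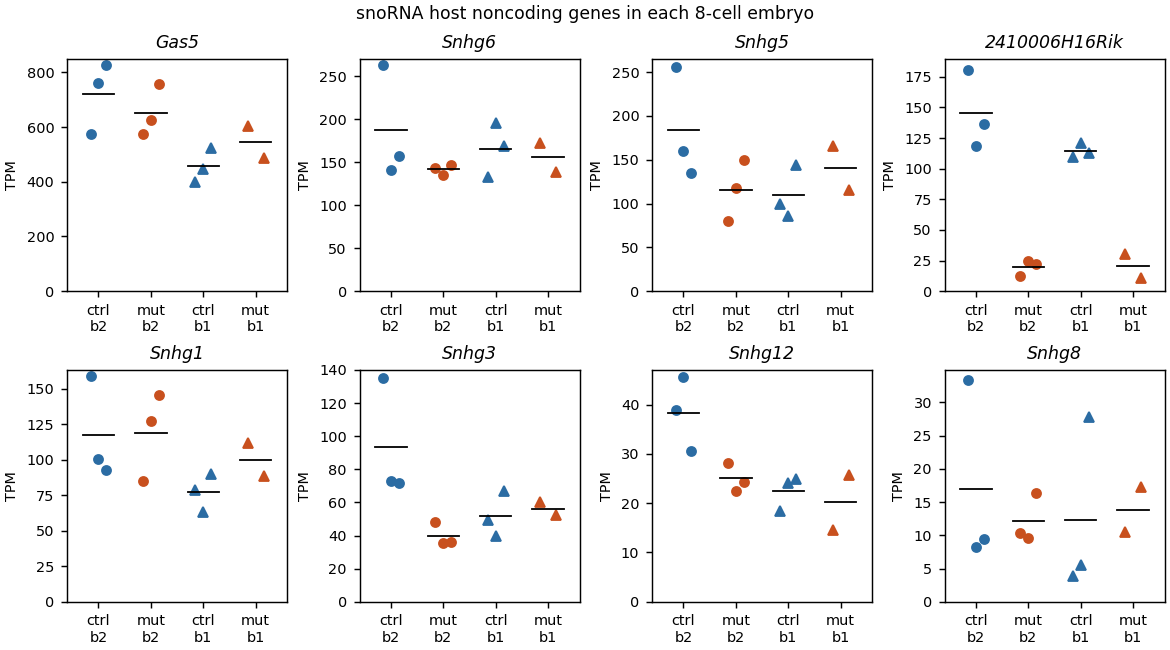
Level of each member, in TPM on an axis from 0, in every embryo. Blue marks controls and orange mutants, circles are batch 2 and triangles batch 1, and bars are the means. *2410006H16Rik* lay between 109 and 181 TPM in controls and between 10.4 and 30.0 TPM in mutants, while the ranges of the other 7 members overlapped between the groups.

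As a description of the list and not as a test of it, 1 of the 8 members met the threshold used for all genes (baseMean, the mean normalised count, above 10 and adjusted p under 0.05), the gene already known to be low. Of 10448 genes tested, 148 were called (1.42%), of which 90 were lower in mutants (0.861%). Without control 2 the number called was 264, and without mutant 2 or mutant 5 it was 86 or 91. All mutants lay below all controls in normalised counts for 1 of the 8 members, against 0.632% of the genes tested. The same held inside each batch for 1 member, against 1.41% of the genes tested. Since the list was built around that gene, nothing is read from these shares. The log2 fold change was below 0 for 6 of the 8 members, with a median of -0.26, or -0.26 without *2410006H16Rik*, beside a median of -0.0012 over all genes tested.

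*Gas5*, named for its accumulation in growth-arrested cells, was the most abundant member. Its level was 574, 760 and 827 TPM in the controls of batch 2 and 400, 446 and 522 TPM in those of batch 1. In mutants it was 573, 627 and 757 TPM in batch 2 and 605 and 486 TPM in batch 1. The groups overlapped in each batch, and the means were 588 ± 171 TPM (SD, n = 6) in controls and 610 ± 98.2 TPM (SD, n = 5) in mutants. On the log2 scale the difference was 0.013 ± 0.17 (SE), which makes *Gas5* the member with the smallest difference and the smallest SE.

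*Snhg1*, the host of a cluster of box C/D snoRNAs, was the only other member with a fold change above 0. It lay between 63.0 and 159 TPM in controls with a median of 91.3 TPM. In mutants it was 84.8, 127 and 145 TPM in batch 2 and 111 and 88.2 TPM in batch 1. The ranges overlapped in both batches, and the value on the log2 scale was 0.18 ± 0.24 (SE). With 1 embryo left out it ranged from 0.11 without mutant 3 to 0.35 without control 1. It was 0.08 ± 0.35 in batch 2 alone and 0.32 ± 0.36 in batch 1 alone.

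*Snhg3*, the host of *Snora73a* and *Snora73b*, was lower in mutants than in controls of batch 2, and its ranges overlapped in batch 1. In batch 2 its level was 135, 73.1 and 71.7 TPM in controls and 48.0, 35.2 and 36.2 TPM in mutants, with no overlap. In batch 1 it was 49.2, 39.8 and 66.9 TPM in controls and 60.2 and 52.3 TPM in mutants, within the range of the controls. The log2 fold change was -1.18 ± 0.43 (SE) in batch 2 alone, 0.10 ± 0.47 in batch 1 alone and -0.61 ± 0.33 over both. Without control 1, the embryo at 135 TPM, the value over both batches was -0.36.

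Part of the *Snhg3* count is an estimate. The posterior SD of its expected count was between 3.05% and 10.2% of the count, against at most 0.390% in *Gas5*, *Snhg1*, *Snhg5* and *Snhg6*, 1.82% in *Snhg12* and 6.83% in *Snhg8*. It spans *Snora73b*, which had 33.9 to 114 reads in controls and 71.2 to 188 reads in mutants, and it overlaps *Rcc1* on the same strand. Across batch 2 the level of *Snora73b* was 146, 112 and 121 TPM in controls and 118, 210 and 177 TPM in mutants, so in this batch it was not lower where its host was lower. In batch 1 it was 86.8, 80.5 and 116 TPM in controls and 166 and 128 TPM in mutants, so each mutant lay above each control while the ranges of *Snhg3* overlapped. With 2 mutants and 3 controls, and no count of all genes set apart in this way, nothing is read from that. How RSEM divided reads between the host and *Snora73b* was not tested.

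*Snhg5* and *Snhg6*, hosts of *Snord50a* and *Snord50b* and of *Snord87*, were at intermediate levels. *Snhg5* was 256, 160 and 135 TPM in batch 2 controls against 79.9, 117 and 150 TPM in batch 2 mutants. In batch 1 it was 99.5, 85.4 and 144 TPM in controls against 165 and 115 TPM in mutants. The TPM ranges overlapped in both batches, while the normalised counts of batch 2 did not, at 535 to 958 in controls and 297 to 494 in mutants. The sign of its log2 fold change differed between the batches, -0.70 ± 0.33 (SE) in batch 2 alone and 0.26 ± 0.35 in batch 1 alone, with -0.27 ± 0.27 over both and -0.06 without control 1. *Snhg6* ranged from 133 to 263 TPM in controls (median 163 TPM) and from 135 to 172 TPM in mutants (median 143 TPM), and its log2 fold change was -0.26 ± 0.22, or -0.076 without control 1.

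The least abundant members were *Snhg12* and *Snhg8*. *Snhg12*, which hosts mainly box H/ACA snoRNAs, was 38.9, 45.5 and 30.5 TPM in batch 2 controls and 28.2, 22.6 and 24.3 TPM in batch 2 mutants, without overlap. In batch 1 it was 18.4, 24.2 and 24.9 TPM in controls and 14.6 and 25.7 TPM in mutants, with overlap, and over both batches the log2 fold change was -0.46 ± 0.28 (SE). The share of all genes whose groups lay apart in batch 2 alone was not counted. Nothing is therefore read from the lack of overlap of *Snhg3*, *Snhg5* and *Snhg12* in that batch. *Snhg8*, the host of *Snora24*, rested on 8 to 87 reads per library. Its level was 33.4, 8.21, 9.41, 3.81, 5.48 and 27.8 TPM in controls 1 to 6 and between 9.53 and 17.2 TPM in mutants. The controls spanned a wider range than the mutants and covered it, and the log2 fold change of -0.17 ± 0.59 became 0.25 without control 1 and 0.42 without control 6.

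**Figure D2:**
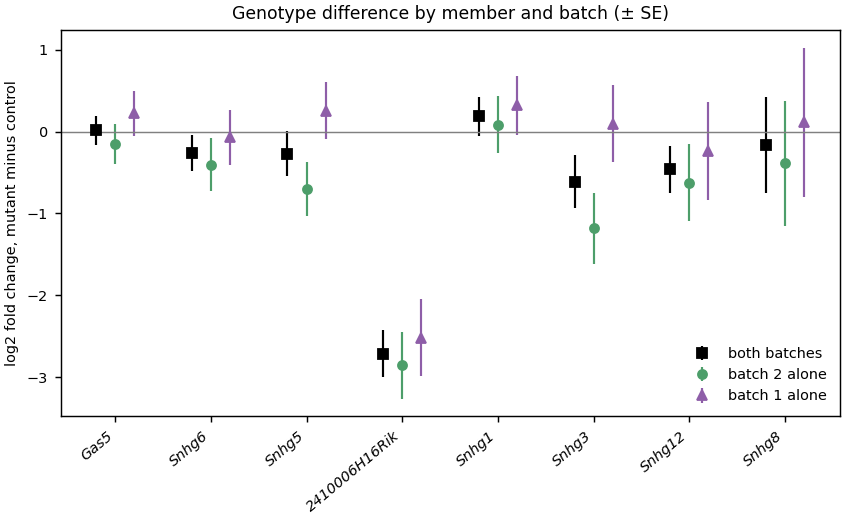
Log2 fold change of each member, mutant minus control, with its SE, from the fit over both batches (black squares), batch 2 alone (green circles) and batch 1 alone (purple triangles). *2410006H16Rik* lay between -2.85 and -2.52 in the 3 fits, whereas *Snhg3* moved from -1.18 in batch 2 to 0.10 in batch 1.

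The summed level of the 8 members was 1256 ± 293 TPM (SD, n = 6) in controls and 1096 ± 146 TPM (SD, n = 5) in mutants. Without *2410006H16Rik* the sums were 1126 ± 273 and 1076 ± 140 TPM, and their ranges, 783 to 1459 and 924 to 1275 TPM, overlapped. *2410006H16Rik* made up 8.44% to 12.3% of the sum in controls and 1.11% to 2.56% in mutants. *Gas5* made up 35.0% to 56.6% of the sum in controls and 51.8% to 58.5% in mutants.

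The difference between mutants and controls was also compared between the batches with an interaction term, the effect in batch 1 minus that in batch 2. It is built from the same contrast that chose the list, so its values are given as a description and nothing about the members is read from the calls. *Snhg3* had the largest value, 1.28 ± 0.59 (SE) on the log2 scale, *Snhg5* followed at 0.95 ± 0.51, and *2410006H16Rik* was at 0.33 ± 0.61. The interaction was called for 0 of the 8 members by DESeq2 and by edgeR, with 1 member at an unadjusted p under 0.05 in each, and for 0.0573% of genes, 6 of 10472 tested with DESeq2.

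The members differed in level by over an order of magnitude in the controls. The choice of genes did not use this comparison between members, although its contrast drew on the same control values. On the log2(TPM + 1) scale the order was *Gas5* (mean level 588 TPM), *Snhg6* (176), *Snhg5* (147), *2410006H16Rik* (130), *Snhg1* (97.2), *Snhg3* (72.6), *Snhg12* (30.4) and *Snhg8* (14.7 TPM). By mean control TPM, *Gas5* was above 97.5% of the genes tested and *Snhg8* above 54.0%. Of 28 pairs of members, 25 differed in an exact two-sided sign-flip permutation test over the 6 embryos, with a Benjamini-Hochberg adjusted p of 0.035. The unadjusted p of each was 0.03125, the smallest that 6 embryos allow.

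Neighbours in that order were told apart in 4 of 7 cases. *Gas5* exceeded *Snhg6* by 1.72 ± 0.57 (SD, n = 6) on the log2 scale in 6 of 6 embryos (exact adjusted p = 0.035). *Snhg6* and *Snhg5* differed by 0.32 ± 0.47 (SD), higher in 5 of 6 embryos (exact adjusted p = 0.0972), and *Snhg5* and *2410006H16Rik* by 0.11 ± 0.39 (SD), higher in 3 of 6 (exact adjusted p = 0.594). *2410006H16Rik* exceeded *Snhg1* by 0.45 ± 0.27, *Snhg1* exceeded *Snhg3* by 0.46 ± 0.17 and *Snhg3* exceeded *Snhg12* by 1.18 ± 0.43 (SD), each in 6 of 6 embryos with the same exact adjusted p of 0.035. *Snhg12* was above *Snhg8* in 5 of 6 embryos, by 1.33 ± 1.04 (SD) with an exact adjusted p of 0.0673. In the mutants *2410006H16Rik*, at a mean of 20.1 TPM, lay beside *Snhg12* at 23.1 ± 5.17 TPM (SD, n = 5) instead of beside *Snhg5*.

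**Figure D3:**
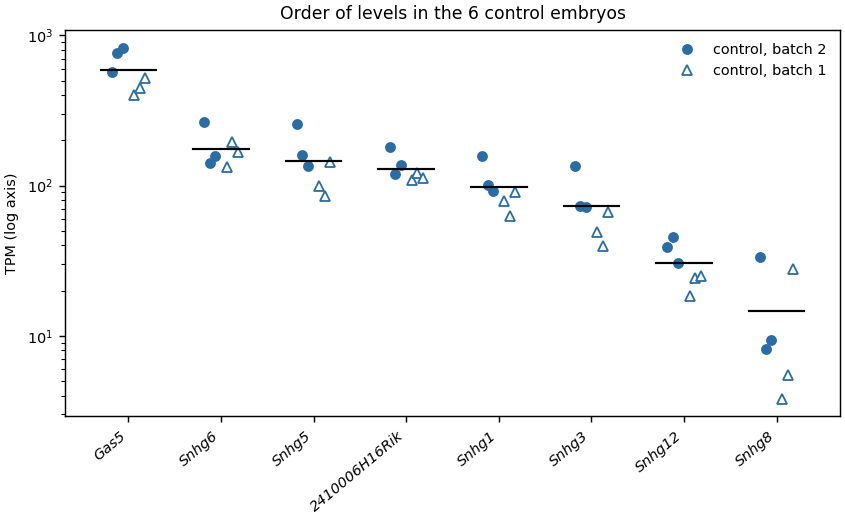
Level of each member in the 6 control embryos, in TPM on a log axis, in falling order of the mean (bars), with batch 2 as filled circles and batch 1 as open triangles. Means ran from 588 TPM for *Gas5* to 14.7 TPM for *Snhg8*, and *Snhg8* had the widest spread, from 3.81 to 33.4 TPM.

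The fitted difference between batch 1 and batch 2 was below 0 for 8 of the 8 members, and for 5234 of the 10448 genes tested. The median on the log2 scale was -0.52 for the members, beside -0.0018 over all genes. In mutants alone the mean normalised count was higher in batch 1 than in batch 2 for *Snhg3* (96.2 and 77.4) and *Snhg8* (33.0 and 28.6). It was lower in batch 1 for the other members. Over 15 alternative fits the sign of *Snhg8* did not hold, with values from -0.77 to 0.35, while the other 7 members stayed below 0, *Snhg3* between -0.97 and -0.14. With DESeq2 the difference was called for 3 of the 8 members, against 27.7% of all 10448 genes tested between the batches, so the count is close to that of genes at large. *Gas5* fell by 0.76 ± 0.17 (SE) on the log2 scale with an adjusted p of 1.71e-04, *Snhg12* by 0.76 ± 0.28 with an adjusted p of 0.0361 and *Snhg1* by 0.65 ± 0.24 with an adjusted p of 0.0331. *Gas5* was called in 15 of 15 alternative fits, *Snhg1* in 8, *Snhg12* in 4 and *Snhg5* in 3. Without control 1, 4 or 5, or mutant 2 or 3, the number called was 1. The value for *Snhg5* was -0.60 ± 0.27 with an adjusted p of 0.0944, and those for the other 4 members were between -0.44 and -0.07. Batches differed in the cycles of amplification and were also isolated and processed separately, and these cannot be told apart.

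**Figure D4:**
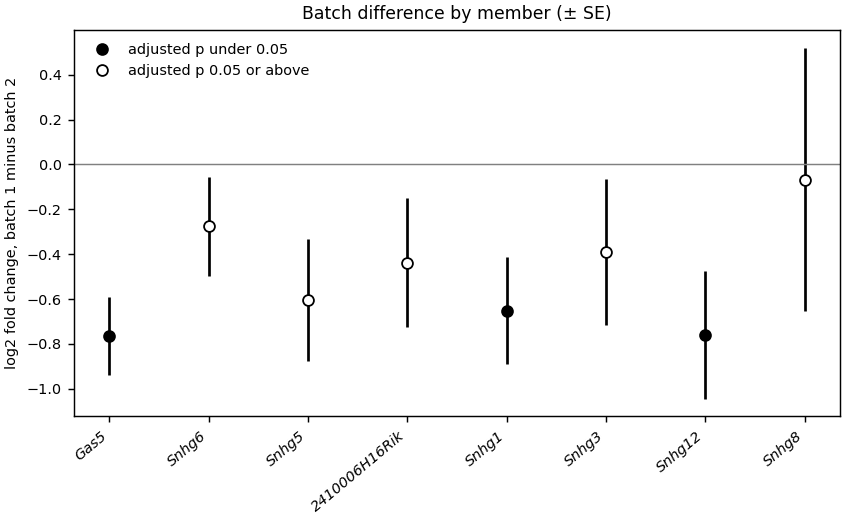
Log2 fold change of each member between the batches, batch 1 minus batch 2, with its SE, from the fit with genotype in the model. Filled points are those with an adjusted p under 0.05, *Gas5*, *Snhg1* and *Snhg12*, and the 8 values lay between -0.76 and -0.07.

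Other snoRNA hosts were examined to see where *2410006H16Rik* stood among its kind. Of 15 other noncoding hosts listed by symbol, 12 had a row in the tables and 8 were tested, of which *Snhg11* is annotated as protein-coding and is also counted among the protein-coding hosts. In DESeq2, 0 of them were called in either direction, 0 had an unadjusted p under 0.05, edgeR and limma also called 0, and the median log2 fold change was 0.02. Among all genes tested 1.42% were called and 11.9% had an unadjusted p under 0.05, so a list of this length would hold few of either or none. The most abundant were *Snhg15* at 108 ± 27.96 TPM (SD, n = 6) in controls and 122 ± 22.6 TPM (SD, n = 5) in mutants, *Zfas1* at 64.8 ± 31.5 (SD, n = 6) and 67.8 ± 6.13 TPM (SD, n = 5), and *Snhg17* at 40.7 ± 13.5 and 38.7 ± 13.8 TPM. The 8 log2 fold changes lay between -0.38 for *Epb41l4aos* and 0.29 for *Snhg20*. Of these 8 genes, 1, *Epb41l4aos*, is on the list of genes associated with PRDM10 binding sites.

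Protein-coding hosts, which include many ribosomal protein and translation genes, were taken from the annotation. Of 259 such genes 186 were tested, and 1 was called lower and 1 higher in mutants by DESeq2, which is 1.08% beside 1.42% of all genes tested. At an unadjusted p under 0.05 there were 11 lower and 12 higher, 12.4% of the list beside 11.9% of all genes. *Mia2*, known for a role in exporting cargo from the endoplasmic reticulum, fell from 40.6 ± 10.1 TPM (SD, n = 6) in controls to 19.4 ± 3.76 TPM (SD, n = 5) in mutants, which is -1.06 ± 0.20 (SE) on the log2 scale, with an adjusted DESeq2 p of 5.92e-05. *Pabpc4*, a poly(A)-binding protein, rose from 266 ± 41.9 to 374 ± 58.1 TPM, a log2 fold change of 0.42 ± 0.11 (SE) with an adjusted p of 0.0298 in DESeq2 and of 0.241 in edgeR. *Mia2* kept an adjusted p under 0.05 in 16 of 18 alternative fits and *Pabpc4* in 4. Without control 3 or mutants 2, 3 or 5, 1 gene of the list was called. The most abundant gene of the list by mean TPM, the chaperone *Hspa8*, was not called, with a log2 fold change of 0.40 ± 0.18 (SE). Of the 186 genes tested, 6 are on the list of genes associated with PRDM10 binding sites, and 1 of these, *Mia2*, was called.

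Genes that act on the snoRNA or on the spliced host were taken as a pair of lists, and their counts are to be read beside the 1.42% of all genes called, at which lists of this length hold few calls or none. *Dkc1*, *Nop56* and *Nop58* are also among the protein-coding hosts. All 24 genes of snoRNP assembly and snoRNA maturation were tested with DESeq2, and 0 were called, with 4 at an unadjusted p under 0.05 (16.7%, beside 11.9% of all genes) and 0 called by edgeR. Among the most abundant, *Snu13*, which binds the kink-turn of box C/D snoRNAs, had a log2 fold change of -0.24 ± 0.17 (SE), the H/ACA protein *Nhp2* 0.10 ± 0.12, and the C/D core protein *Nop58* -0.0086 ± 0.14. All 17 factors of nonsense-mediated decay were tested, and 0 were called by DESeq2 or edgeR, with 1 at an unadjusted DESeq2 p under 0.05. Their most abundant genes, the exon junction proteins *Eif4a3*, *Magoh* and *Rnps1*, had log2 fold changes of 0.02, -0.16 and 0.14. The median was 0.03 for the first list and 0.11 for the second, beside -0.0012 over all genes tested.

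**Figure D5:**
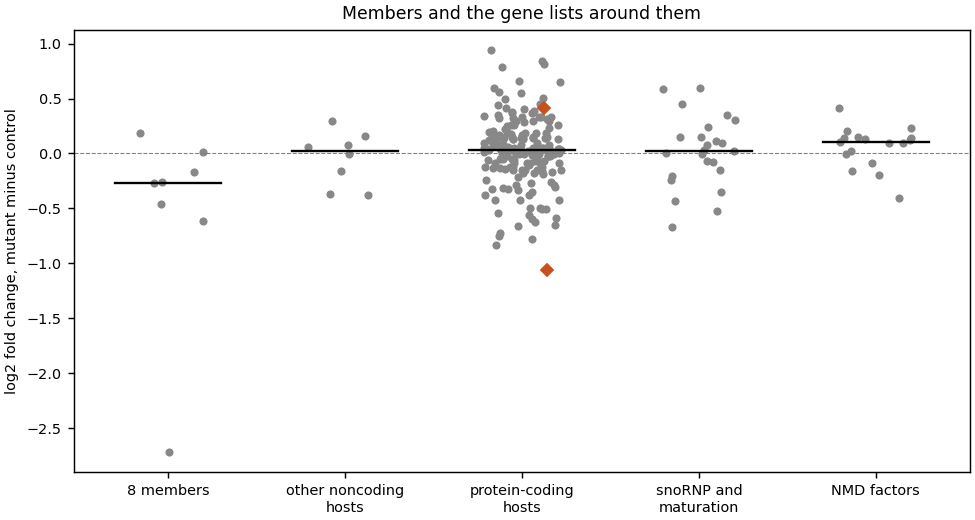
Log2 fold change, mutant minus control, of the 8 members, 8 other noncoding snoRNA hosts, 186 protein-coding hosts, 24 snoRNP and maturation genes and 17 nonsense-mediated decay (NMD) factors, with medians as bars. Orange diamonds are called genes of the lists, *Mia2* at -1.06 and *Pabpc4* at 0.42 among protein-coding hosts, members are drawn without calls, and the lowest member is *2410006H16Rik* at -2.71.

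The genes beside *2410006H16Rik* on chromosome 11 were hardly detected. *Trpv2*, a cation channel gene 2362 bases upstream on the same strand, was at 0.373 ± 0.241 TPM (SD, n = 6) in controls and 0.166 ± 0.175 TPM (SD, n = 5) in mutants. *Lrrc75a*, which ends 77 bases downstream on the other strand, was at 0.310 ± 0.759 and 0.0200 ± 0.0447 TPM. The only genes that start within 1000 bases of its start are its own *Snord49b* and *Snord49a*. *Trpv2* had 0 to 11 reads per library and *Lrrc75a* 0 to 3, so a change at either was not detectable at this depth.

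The genes whose profile over the 11 embryos was most like that of *2410006H16Rik* were found by the root mean square difference of centred log2(normalised count + 1). *Eef1d*, a subunit of the translation elongation factor eEF1B complex, was closest at 0.419 and went from 495 ± 118 TPM (SD, n = 6) in controls to 77.7 ± 19.3 TPM (SD, n = 5) in mutants. *Rnasek*, which encodes a protein linked to the vacuolar ATPase, followed at 0.586, with 171 ± 59.4 and 36.3 ± 1.66 TPM. *Pfdn4*, a prefoldin subunit, was at 0.635, with 52.3 ± 10.9 and 4.74 ± 1.55 TPM, and *Plekha8* and *Syvn1* came next. Of these genes, *Plekha8* is not on the list of genes associated with PRDM10 binding sites, and the others are. The looser form of the motif was not found in the promoter windows of *Pfdn4*, *Plekha8* and *Syvn1*. *Eef1d* and *Rnasek* had no promoter window. The median root mean square difference over all genes was 1.56, and the other 7 members lay between 1.23 and 1.71, on either side of that median. *2410006H16Rik* was chosen for its low level in mutants, so this measure favours genes with a like drop. These values are therefore a description, and nothing about the members is read from them.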

How the data were processed

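Single 8-cell embryos (6 control, 5 mutant) were sequenced by a Smart-seq2 protocol in 2 batches. The authors mapped reads to GRCm38.p6 with STAR 2.6.0c and quantified genes with RSEM, and the deposited tables hold, per gene, an expected count (reads shared between genes are divided), a posterior SD of that count, an effective length and TPM. The authors' comparison table (baseMean, log2 fold change, SE, Wald score, p-value and adjusted p) was not used. Groups and batches came from the labels.

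The sources used here name no molecular identifiers and no strand-specific step, so PCR copies may be counted as reads, and where exons overlap, strand cannot separate reads of *Gas5*, *Snhg3* and *Snhg6* from those of *Zbtb37*, *Gm17300* and *Mcmdc2*. The posterior SD was at most 0.0879% of the count for *Gas5* and 0.0107% for *Snhg6*, and 10.2% for *Snhg3*. Errors printed are SDs between embryos or SEs of the fit. Nothing in the labels says which embryos were littermates, so p-values measure the spread between these embryos.

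Expected counts were rounded and fitted with DESeq2 1.42.0 (Wald test, batch and genotype in the model, Benjamini-Hochberg over all genes), and genes with baseMean above 10 and adjusted p under 0.05 were called. Levels of different genes were compared as TPM with an exact sign-flip permutation test. edgeR 4.0.16 and limma 3.58.1 (log2(TPM + 1)), other normalisation, filters, batches alone and each embryo left out were the alternatives. The fits were tested on simulated data. Symbols and positions came from GENCODE M21 on the same build, in which 54079 of 54146 gene IDs were matched, and promoters from RefSeq. Members and lists were chosen with earlier results of these data known. Named genes were the 8 members, called genes and the 3 highest by mean TPM of each of 4 lists, the neighbours of *2410006H16Rik*, and the 5 genes most like it. Some genes that this rule names are not reported here.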

Additional observations from a re-analysis of the deposited data

Results flagged for a closer look

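Control 1, a batch 2 embryo, lay far from its group in 2 of the 32 sets of member values examined for this. The critical values used are set so that about 1 set in 20 is picked by chance, and the sets are not independent, since they hold TPM and normalised counts of the same reads. *Snhg1* was at a normalised count of 437 in control 1 and between 148 and 255 in the other 5 controls. *Snhg3* was at 135 TPM in control 1 and between 39.8 and 73.1 TPM in the other 5. Control 1 was also the highest control in normalised counts for *2410006H16Rik* at 349, for *Snhg5* at 958 against at most 544 in the others, and for *Snhg6* at 535 against at most 334.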

How the results depend on the processing

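The difference of *2410006H16Rik* between mutants and controls stayed between -3.01 and -2.52 on the log2 scale in 18 of 18 alternatives, which is a description, since the gene was chosen on this difference. The sign of the small values of *Gas5* changed in 6 of 18 alternatives, of *Snhg8* in 4, and of *Snhg3* and *Snhg5* in 1 each, and that of the remaining members in none. Over all genes, the 148 called by DESeq2 became 35 with edgeR, 22 with limma, 51 without the batch term, 78 in batch 1 alone and 48 in batch 2 alone, and ranged from 86 to 264 with an embryo left out. Of the protein-coding hosts, 2 were called, against 1 with edgeR, without the batch term or in batch 2 alone, 0 with limma or in batch 1 alone, and 1 to 2 with an embryo left out. The batch difference was called for 1 to 3 members with an embryo left out. Of 28 pairs of members 25 differed in level, and 0 with any control left out, because the smallest p that 5 embryos allow cannot pass. Apart from these last, whose reason lies in the test, the cause of the differences between alternatives was not tested. The other counts stayed within 1.5 times. No paired analysis was possible because replicate numbers were given in accession order and pair no embryos. *Snhg8* rested on the fewest reads of the members, 8 to 87 per library, and its spread between embryos was not separated from its depth.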
